A study of Salmo salar with 6 samples.

Results

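The genes described here are 76 chromatin modifiers and remodellers measured in the head kidney (HK) of juvenile Atlantic salmon fed a control diet or the same diet with an olive fruit extract. They were taken by gene symbol from the 8072 symbols that the arrays carry, as acetyltransferases, deacetylases, methyltransferases, demethylases, remodelling ATPases, their complex subunits and the proteins that read their marks. Each of the 76 genes had 1 probe, an oligonucleotide on the array, named through its RefSeq accession. Copies known only by a locus number, which 17486 probes carry, were not counted. The name pattern also caught 7 genes whose known work lies elsewhere, such as kat3, a kynurenine aminotransferase, and these are described apart.

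Chromatin genes set how DNA is packed and read. Acetyltransferases and deacetylases add and remove acetyl groups on histones, methyltransferases and demethylases do the same with methyl groups, and ATP-driven remodellers such as the SWI/SNF, CHD and INO80 families slide or evict nucleosomes. Polycomb repressive complex 2 (PRC2) methylates lysine 27 of histone H3 and keeps genes silent. In mammals several of these enzymes, among them EZH2, KAT6A and TET proteins, are needed for blood cell formation, and the HK is the main blood-forming organ of bony fish.

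The fish of the control group were fed the basal diet without the additive, and those of the AQUOLIVE group the diet with 0.15% of AQUOLIVE, an extract holding 8.0% triterpenic acid and 2% polyphenols, for 133 days. Both groups were juveniles, and the diets were formulated to differ only in the additive. The labels give about 252 g for both groups, which in the paper is the mean of the control fish. The paper reports a lower mean for the AQUOLIVE fish, without a significant difference in growth. HK RNA of 18 fish per diet was joined into 3 pools of 6 fish, 1 pool per 1-color Agilent array. Values of single fish were not measured. Per the paper, each pool took 1 fish from each of the 6 tanks of its diet. The 3 pools of a diet therefore share their tanks, and the spread between arrays is one between pools and not between tanks. Values are normalized log2 signals, and a log2 FC is the AQUOLIVE mean minus the control mean.

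The arrays differed in brightness, with a median signal before normalization of 16.7 (control pool 3) to 107.8 (AQUOLIVE pool 1). Between 42.5% (control pool 3) and 76.0% (AQUOLIVE pool 2) of all probes were well above background, Feature Extraction's flag for a detected spot. Of the 76 chromatin probes 53 to 73 were. The share did not simply follow brightness, as AQUOLIVE pool 2 had a median signal of 75.3. The signal needed for the flag differed by array. The probe of ncoa7a was flagged at 14.3 in AQUOLIVE pool 2, and that of carm1l was not at 47.8 in AQUOLIVE pool 3. The control arrays were scanned before the AQUOLIVE arrays, each on its own slide, so effects of scan order and of diet cannot be told apart. Of marker lists for blood and interrenal cells, the probes of star and hsd3b1, genes of steroid-making interrenal cells, and of mpx, cd68 and alas2, genes of myeloid and red cells, were above background on all 6 arrays. Among the 8 kept myeloid markers, mpx (log2 FC -0.90) and cd68 (-0.85) passed the threshold given below with a lower signal. The 6 with a value on every array summed to 64411 to 75473 in the control and 55745 to 67098 in the AQUOLIVE pools, and each of the 8 was above background on all 6 arrays. The 5 kept proliferation markers had log2 FC values from -0.24 (mcm3) to 0.80 (mcm2) and a median of -0.10, with 0 past the threshold and summed signals of 15108 to 18137 in the control and 16008 to 17761 in the AQUOLIVE pools. Of the 5 kept erythrocyte markers, hba, a globin gene, passed with a higher signal (log2 FC 0.90, SE 0.24, no overlap). It was the only marker of any list to do so, while alas2 lay at -0.18. The 4 with a value on every array, which leave out hba, summed to 32993 to 42996 in the control and 27725 to 35846 in the AQUOLIVE pools. The mean log2 signal of hba was 15.66 and 16.56 (control and AQUOLIVE), above that of alas2 (15.09 and 14.91). These sums therefore do not give the direction of the erythrocyte list as a whole. The thrombocyte marker itga2b (-0.78) and the chromaffin marker th (-1.34, above background on 4 arrays) were lower without overlap and did not pass. Whether cell composition has a part in the values below was not tested.

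Of the 76 chromatin genes, 66 were tested, those whose probe was well above background on 3 or more arrays. Calls follow the study's methods, which take an unadjusted p below 0.05 in an unpaired comparison, here joined to an absolute log2 FC of 0.8 or more. This is called the methods' test or threshold below, and SE is the standard error of a log2 FC from limma. It was passed by 7 genes with a higher signal after AQUOLIVE, phf1, kdm2ab, chd3, ezh2, phf6, setd7 and kat5b, and by 1 with a lower signal, kat6a. That is 10.6% and 1.52% of the 66, against 5.22% higher and 3.83% lower (9.05% in all) among all 25826 kept probes. Among the 5961 kept probes that carry a symbol the shares were 4.14% and 2.23%. Over all kept probes 1347 were higher and 989 lower. The paper's own processing called fewer in all, with a larger share of them higher, so the calls here are not the paper's. The gene phf1 was kept through its AQUOLIVE arrays alone, so it had to be higher and adds no support to the count. The gene chd3 was well above background on 1 control array and all 3 AQUOLIVE arrays, and the latter alone would have met the filter. Among probes above background on 1 or more arrays of each diet, a filter added after the values were seen, 6 of 65 genes were higher and 1 lower (4.81% and 3.87% of all such probes). In bulk RNA, more cells of a type that expresses a gene and more of its RNA per cell cannot be told apart. After adjustment over all kept probes limma called 0 of the 66 genes (0.0155% of all kept probes; smallest adjusted p 0.129), and 17 had an unadjusted p under 0.05 (18.1% of all kept probes), 13 higher and 4 lower (9.56% and 8.58% of all). Without the minimum on the log2 FC the methods' test was passed by 11 higher and 6 lower genes (15.8% of all kept probes, 8.10% higher and 7.66% lower). The methods' test after Benjamini-Hochberg adjustment also called 0 (0% of all kept probes). The split of 7 to 1 depended on the scaling of the arrays. It was 9 to 0 with each array scaled to its 75th percentile, where 6.21% of all kept probes were higher and 2.75% lower. It was 1 to 0 with normexp background correction, where only setd7 passed and the shares of all kept probes were 2.21% and 0.472%. This alternative adds an offset of 50 to each signal, which by itself makes the log2 FC of dim probes such as phf1 and chd3 smaller. With probes above background on all 6 arrays it was 5 to 1 of 53 genes, against 4.18% and 2.57%.

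The 66 genes were close to evenly divided between higher and lower. Their median log2 FC was 0.01, with 34 values above and 32 below 0, beside a median of -0.02 over all kept probes, and 30 of the 66 lay within 0.3 of 0. In 16 genes every AQUOLIVE pool lay above every control pool (24.2%, against 15.0% of all kept probes), and in 8 every AQUOLIVE pool lay below (12.1%, against 15.2%). For any gene without overlap and with a value on every array, the exact permutation test over the 10 splits of the arrays must give p = 0.1. That is the smallest p that 3 pools against 3 allow, so it adds no support for those genes. The plot by role shows the whole range, from hdac4 to phf1.

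**Figure D1:**
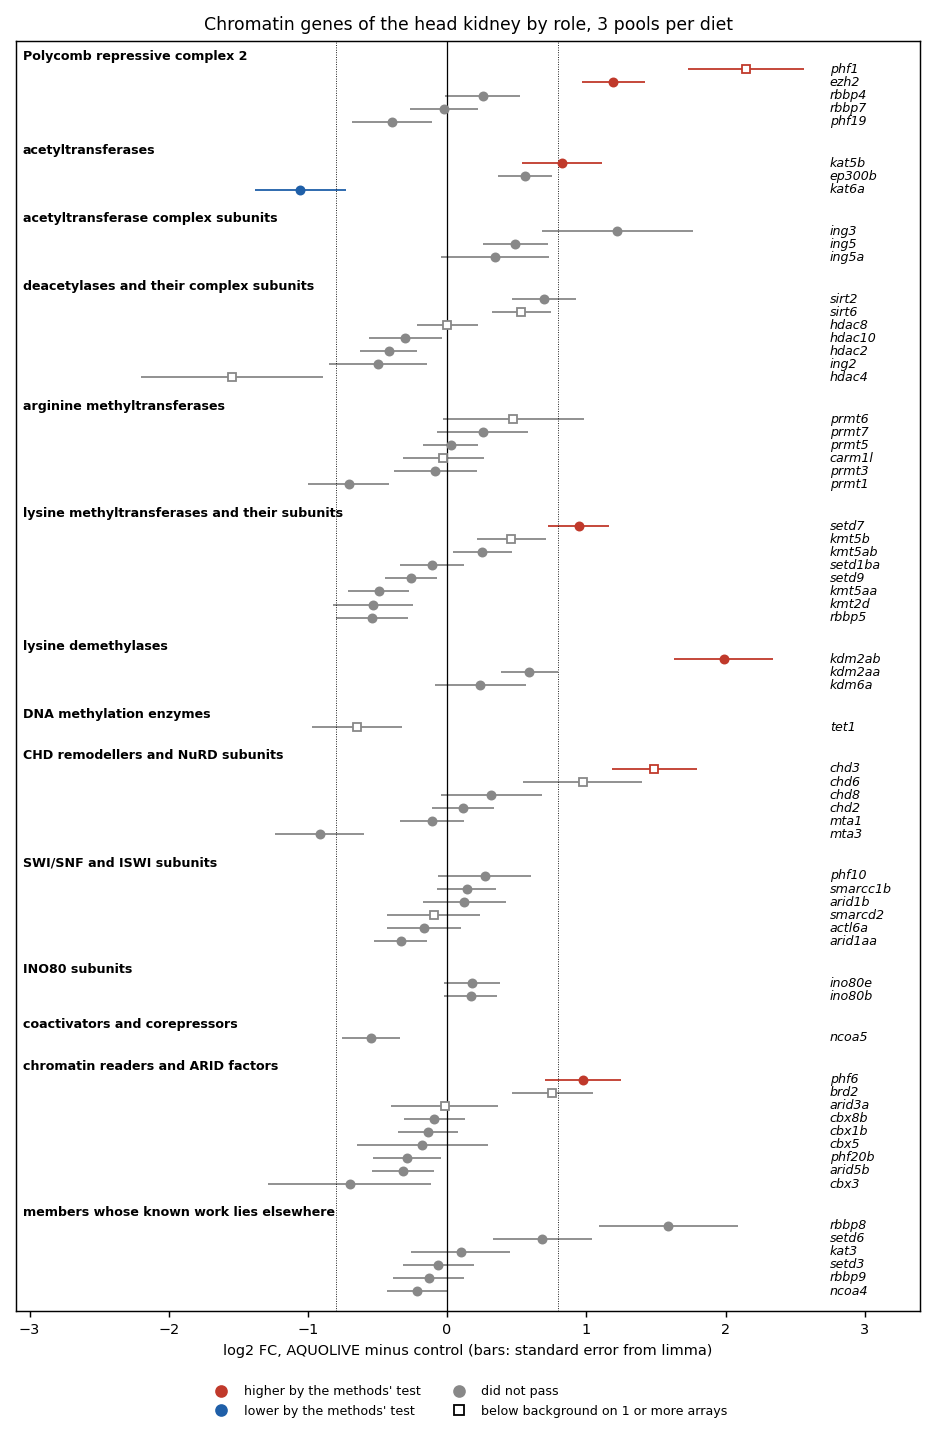
Log2 FC (AQUOLIVE minus control, horizontal axis) of the 66 tested chromatin genes, grouped by role, with bars for the standard error from limma and dotted lines at -0.8 and 0.8. The 7 genes higher by the methods' test (red) are spread over 6 roles, and kat6a (blue) is the 1 lower gene. Open squares are probes not well above background on 1 or more arrays.

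Of the 5 kept PRC2 genes ezh2 was higher by the methods' test, phf1 was detected in the AQUOLIVE pools only, and the other 3 did not pass. The gene ezh2 codes for the catalytic subunit, which places the methyl groups on H3K27. Its signal was 10.68, 11.11 and 10.66 on the control diet (pools 1 to 3) and 12.03, 11.86 and 12.14 with AQUOLIVE. The lowest AQUOLIVE pool was 0.76 above the highest control pool on the log2 scale. The means were 10.82 ± 0.25 (SD, n = 3) and 12.01 ± 0.14 (SD, n = 3), giving a log2 FC of 1.20 (SE 0.23, limma adjusted p = 0.129), or 2.29-fold. It still passed the methods' threshold when any 1 array was left out, and missed it with normexp background correction (0.90) and in the deposited log2 values (0.68).

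The gene phf1 codes for a Polycomb-like protein that joins PRC2 to chromatin. Its probe was not well above background on any control array and was on all 3 AQUOLIVE arrays. The signal was 3.06, 3.14 and 4.41 on the control diet (pools 1 to 3) and 5.35, 5.82 and 5.88 with AQUOLIVE. No AQUOLIVE pool reached down to the control pools, and control pool 3 was the highest of these. Where each control value is raised to that array's dimmest well-above-background probe if it lies under it, phf1 was at least 2.72-fold higher, a bound that depends on that dimmest probe. The measured means were 3.54 ± 0.75 (SD, n = 3) and 5.68 ± 0.29 (SD, n = 3), giving a log2 FC of 2.15 (SE 0.41, limma adjusted p = 0.129). It missed the threshold without control pool 1 (1.87) or control pool 2 (1.76), was not kept when any AQUOLIVE array was left out, and lay between 0.41 with normexp and 4.24 in the deposited values.

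The paralog phf19, another Polycomb-like protein, had a signal of 10.38, 9.43 and 9.84 on the control diet (pools 1 to 3) and 9.41, 9.50 and 9.56 with AQUOLIVE. These groups overlapped, with a log2 FC of -0.40 (SE 0.29). The histone-binding subunits rbbp4 and rbbp7, which PRC2 shares with the NuRD and SIN3 complexes, did not pass either. Their log2 FC was 0.26 (95% confidence interval -0.39 to 0.90 from limma) and -0.02 (interval -0.62 to 0.57), and in both control pool 3 was the lowest array.

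**Figure D2:**
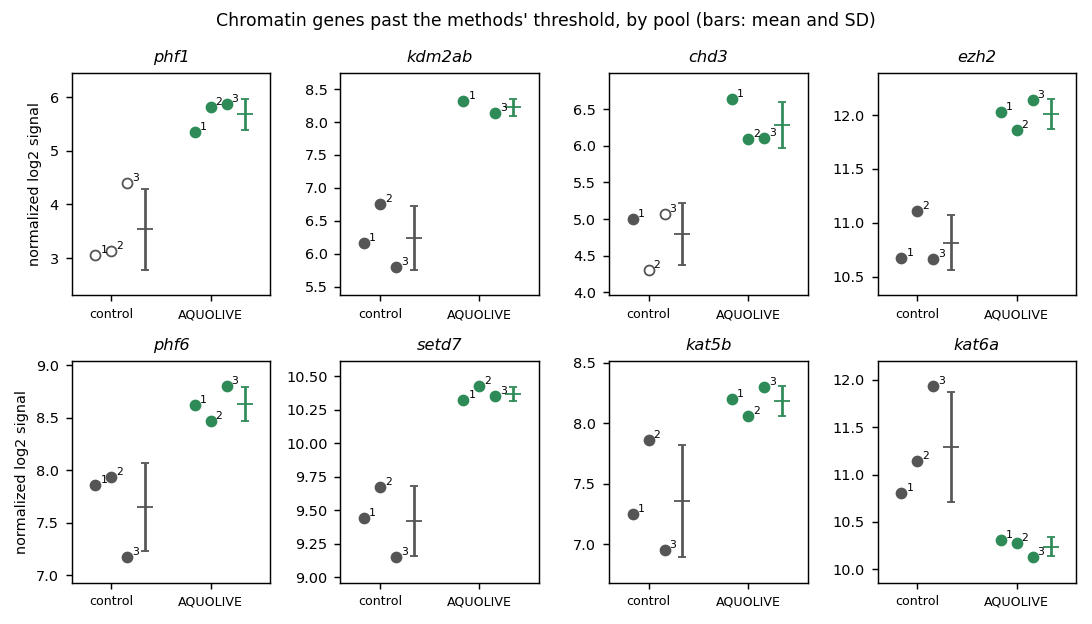
Normalized log2 signal (vertical axis, a scale of its own in each panel) of the 8 chromatin genes past the methods' threshold in control pools (grey) and AQUOLIVE pools (green), numbered by pool, with mean and SD. Open circles are pools where the probe was not well above background; the diets do not overlap in any panel, and kdm2ab has no value in AQUOLIVE pool 2.

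Of the 3 acetyltransferases, 1 was higher and 1 lower by the methods' test. The gene kat5b codes for a copy of Tip60, the enzyme of the NuA4 complex that acetylates histones H4 and H2A. Its signal was 7.25, 7.86 and 6.96 on the control diet (pools 1 to 3) and 8.20, 8.06 and 8.30 with AQUOLIVE. The gap between the diets was narrow, as the highest control pool and the lowest AQUOLIVE pool were 0.19 apart on the log2 scale. The means were 7.36 ± 0.46 (SD, n = 3) and 8.18 ± 0.12 (SD, n = 3), giving a log2 FC of 0.83 (SE 0.29, limma adjusted p = 0.227), or 1.77-fold. The call was lost without control pool 1 (0.81), control pool 3 (0.63) or AQUOLIVE pool 1 (0.82), 2 (0.89) or 3 (0.77). It was also lost with loess against the mean of all 6 arrays (0.83), with normexp (0.69) and under the replicate block. The log2 FC stayed above 0 in all 15 alternatives, though leaving out 1 array could hardly turn it where the diets do not overlap.

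The gene kat6a codes for MOZ, another enzyme of the same MYST family, which mouse blood stem cells need. Its signal was 10.80, 11.15 and 11.93 on the control diet (pools 1 to 3) and 10.31, 10.28 and 10.13 with AQUOLIVE. Every AQUOLIVE pool lay below every control pool, and control pool 3 was the brightest. The means were 11.29 ± 0.58 (SD, n = 3) and 10.24 ± 0.10 (SD, n = 3), giving a log2 FC of -1.06 (SE 0.33, limma adjusted p = 0.198), so the control signal was 2.08-fold that of the AQUOLIVE pools. The call was lost without control pool 2 (-1.14) or 3 (-0.72), without AQUOLIVE pool 1 (-1.09), 2 (-1.07) or 3 (-1.00), and with 75th percentile scaling (-1.20) or normexp (-0.72), and under the replicate block. The direction held in all 15 alternatives, though leaving out 1 array could hardly turn it where the diets do not overlap.

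The gene ep300b codes for p300, a coactivator that acetylates many histone lysines at enhancers. Its pools were tight, at 10.13, 10.25 and 10.23 on the control diet (pools 1 to 3) and 10.85, 10.81 and 10.64 with AQUOLIVE. The diets did not overlap, and the log2 FC of 0.56 (SE 0.19, limma adjusted p = 0.225) was under the minimum of 0.8. With normexp it was 0.29 and in the deposited values 0.09.

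Subunits of acetyltransferase complexes had values above 0 but none passed. The gene ing3, a NuA4 subunit beside Tip60 that binds methylated H3K4, had a signal of 9.03, 9.62 and 7.50 on the control diet (pools 1 to 3) and 10.04, 9.73 and 10.03 with AQUOLIVE. Its AQUOLIVE pools lay above all control pools, but control pool 3 was 1.53 below the next control pool on the log2 scale, and the log2 FC of 1.22 had a standard error of 0.54 and was 0.60 without that pool. The copies ing5 and ing5a, which code for a subunit of the MOZ and HBO1 complexes, had log2 FC values of 0.49 and 0.34. The diets were apart for ing5 (highest control pool 7.98, lowest AQUOLIVE pool 8.13) and overlapped for ing5a. The remaining subunits meaf6 and brd1a were well above background on 0 and 1 arrays and were not tested.

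None of the deacetylases passed the methods' threshold, and in 3 of them the diets were apart. The gene sirt2, an NAD-dependent deacetylase of tubulin and H4K16, had a signal of 7.93, 7.85 and 7.58 on the control diet (pools 1 to 3) and 8.50, 8.25 and 8.71 with AQUOLIVE. All AQUOLIVE pools were higher, with a log2 FC of 0.70 (SE 0.23, limma adjusted p = 0.210). It passed without AQUOLIVE pool 2 (0.82) and was 0.33 with normexp. For sirt6, an NAD-dependent deacetylase of H3K9 and H3K56, all AQUOLIVE pools were higher too, with a log2 FC of 0.53 (SE 0.21) and 2 control pools above background. The class I deacetylase hdac2, a catalytic subunit of NuRD and SIN3, ran the other way, at 9.11, 8.88 and 9.06 on the control diet (pools 1 to 3) and 8.46, 8.77 and 8.55 with AQUOLIVE. Its log2 FC was -0.42 (SE 0.20), with every AQUOLIVE pool below every control pool. The class IIa gene hdac4, whose protein moves between cytoplasm and nucleus, had the lowest log2 FC of the 66 genes, -1.55, but with a standard error of 0.65. It was above background on 2 control arrays and 1 AQUOLIVE array, and the diets overlapped. For ing2, a SIN3 subunit, hdac10 and hdac8 the log2 FC was -0.50, -0.30 and 0.00091, all with overlap. The probe of hdac3 was not well above background on any array.

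Among the lysine methyltransferases 1 of 8 passed. The gene setd7 codes for an enzyme that places a single methyl group on H3K4 and on several non-histone proteins. Its signal was 9.44, 9.68 and 9.15 on the control diet (pools 1 to 3) and 10.32, 10.43 and 10.35 with AQUOLIVE. The AQUOLIVE pools lay within 0.10 of each other and above all control pools. The means were 9.42 ± 0.26 (SD, n = 3) and 10.37 ± 0.05 (SD, n = 3), giving a log2 FC of 0.95 (SE 0.22, limma adjusted p = 0.148), or 1.93-fold. It passed in 14 of 15 alternatives, normexp included, and missed the minimum of 0.8 without control pool 3 (0.79).

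The 2 copies of kmt5a, the enzyme that adds the first methyl group to H4K20, had log2 FC values of opposite sign. The copy kmt5aa had a signal of 7.52, 7.08 and 7.38 on the control diet (pools 1 to 3) and 6.74, 6.98 and 6.78 with AQUOLIVE. The diets did not overlap, with a log2 FC of -0.49 (SE 0.22). The copy kmt5ab had a signal of 7.58, 7.28 and 7.45 on the control diet (pools 1 to 3) and 7.69, 7.88 and 7.50 with AQUOLIVE, which overlapped, with a log2 FC of 0.25 (SE 0.21). The difference between the copies was not tested. The related kmt5b, which adds further methyl groups to H4K20, had a log2 FC of 0.46 with 1 control pool above background, passed with 75th percentile scaling (0.81) and was 0.14 without AQUOLIVE pool 2, and kmt5c was above background on 2 arrays and was not tested. Of the H3K4 methyltransferase complexes, the measured genes were rbbp5, a core COMPASS subunit, at -0.54 with all AQUOLIVE pools below all control pools, kmt2d, an enhancer methyltransferase, at -0.53, and setd1ba at -0.11, and none of them passed. The direction of setd1ba turned in 2 of the 5 alternatives that change scaling or background. For setd9 the pools were tight, at 8.21, 8.18 and 8.26 on the control diet (pools 1 to 3) and 7.88, 7.98 and 8.00 with AQUOLIVE, and the log2 FC of -0.26 (SE 0.19) came with no overlap.

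The arginine methyltransferases overlapped between the diets in all 6 genes. The gene prmt1, which places most asymmetric dimethylarginine in mammalian cells, had a signal of 13.83, 13.20 and 14.09 on the control diet (pools 1 to 3) and 12.85, 13.20 and 12.95 with AQUOLIVE. AQUOLIVE pool 2 and control pool 2 were equal to 2 decimals, and the log2 FC was -0.71 (SE 0.29, limma adjusted p = 0.275). It passed without control pool 2 (-0.95). For prmt5, which makes symmetric dimethylarginine, the log2 FC was 0.03 (95% confidence interval -0.45 to 0.50 from limma), a sign that turned in 3 of the 5 scaling and background alternatives. The genes prmt6, prmt7, prmt3 and carm1l lay at 0.47, 0.25, -0.08 and -0.03. In prmt6 control pools 1 and 3 differed by 2.02 on the log2 scale, and carm1l, a coactivator-type methyltransferase, was above background on 3 of 6 arrays and changed sign with 75th percentile scaling and in the deposited values.

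All 3 kept lysine demethylases had a higher mean in the AQUOLIVE pools, with kdm2aa at -0.01 under normexp. The largest difference was in kdm2ab, a copy of KDM2A, which binds unmethylated CpG islands and removes methyl groups from H3K36. Its spot in AQUOLIVE pool 2 was marked as an outlier and left out. The signal was 6.16, 6.75 and 5.80 on the control diet and 8.32 and 8.13 with AQUOLIVE (pools 1 and 3). Both AQUOLIVE pools were far above the control pools. The means were 6.24 ± 0.48 (SD, n = 3) and 8.22 ± 0.13 (SD, n = 2), giving a log2 FC of 1.99 (SE 0.35, limma adjusted p = 0.136) over 5 arrays, or 3.96-fold. With the outlier spot kept the log2 FC was 1.92 and passed. The call was lost without AQUOLIVE pool 1 (1.89) or 3 (2.08), which leave 1 AQUOLIVE value, in the deposited values (1.64) and with normexp (0.97).

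The other copy, kdm2aa, had a signal of 6.78, 7.02 and 6.63 on the control diet (pools 1 to 3) and 7.36, 7.35 and 7.49 with AQUOLIVE. The diets were apart as in kdm2ab, with a smaller log2 FC of 0.59 (SE 0.21, limma adjusted p = 0.230) that fell under the minimum, and was 0.10 in the deposited values and -0.01 with normexp. The difference between the copies was not tested. The H3K27 demethylase kdm6a, which undoes the mark of PRC2, had a log2 FC of 0.24 (95% confidence interval -0.56 to 1.04 from limma), and its AQUOLIVE pools lay inside the range of the control pools. Its relative kdm6ba was not well above background on any array.

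The 4 remodelling ATPases of the CHD family had values above 0, of which chd8 turned its sign in 1 of the 5 scaling and background alternatives. The gene chd3 codes for an ATPase of NuRD, the complex that couples remodelling to deacetylation. Its signal was 5.00, 4.31 and 5.07 on the control diet (pools 1 to 3) and 6.64, 6.10 and 6.11 with AQUOLIVE. All 3 AQUOLIVE pools were above background and above the control pools, of which 1 was above background. The control mean rested on 2 pools that were not well above background. The means were 4.79 ± 0.42 (SD, n = 3) and 6.28 ± 0.31 (SD, n = 3), giving a log2 FC of 1.49 (SE 0.30, limma adjusted p = 0.136). It still passed when any 1 array was left out and missed the threshold with normexp (0.52). The gene chd6 had a signal of 4.27, 4.73 and 4.51 on the control diet (pools 1 to 3) and 4.57, 6.12 and 5.74 with AQUOLIVE. AQUOLIVE pools 2 and 3 stood above the rest and pool 1 among the control pools, and the log2 FC of 0.97 (SE 0.43) did not pass. It passed with 75th percentile scaling (1.36), in the deposited values (1.03) and without AQUOLIVE pool 1 (1.39), and was 0.53 without AQUOLIVE pool 2 and 0.24 with normexp. For chd8 and chd2 it was 0.32 and 0.12, with overlap.

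Of the other NuRD subunits, mta3 had a signal of 7.98, 8.89 and 9.04 on the control diet (pools 1 to 3) and 7.77, 7.68 and 7.71 with AQUOLIVE. The AQUOLIVE pools lay within 0.09 of each other and just below control pool 1, and the log2 FC of -0.92 (SE 0.32, limma adjusted p = 0.230) missed the methods' test. It passed with quantile normalization (-0.92) and without control pool 1 (-1.21). The paralog mta1 was at -0.11, with overlap, and turned its sign in 2 of the 5 scaling and background alternatives.

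The SWI/SNF subunits had log2 FC values from -0.33 to 0.27 in 6 genes and 0 past the threshold. The gene arid1aa, a DNA-binding subunit of the BAF form of the complex, had a signal of 10.30, 10.28 and 10.50 on the control diet (pools 1 to 3) and 10.04, 10.06 and 9.97 with AQUOLIVE. Its AQUOLIVE pools lay below all control pools by at least 0.22, with a standard error of 0.19. The scaffold gene smarcc1b was at 0.14 (95% confidence interval -0.38 to 0.66 from limma), and arid1b, actl6a, smarcd2 and phf10 overlapped as well. Of the 5 scaling and background alternatives, smarcc1b and smarcd2 each turned sign in 3, arid1b in 2, and actl6a and phf10 in 0. The INO80 subunits ino80b and ino80e, which are distinct proteins and not gene copies, were at 0.17 and 0.18, and each turned its sign in 2 of the 5 scaling and background alternatives.

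Among the readers of histone marks, phf6 passed. It codes for a nuclear PHD-like protein that binds NuRD and is mutated in human leukaemia. Its signal was 7.86, 7.93 and 7.17 on the control diet (pools 1 to 3) and 8.62, 8.47 and 8.80 with AQUOLIVE. All AQUOLIVE pools lay above the control pools, with control pool 3 the lowest. The means were 7.65 ± 0.42 (SD, n = 3) and 8.63 ± 0.17 (SD, n = 3), giving a log2 FC of 0.98 (SE 0.28, limma adjusted p = 0.177), or 1.97-fold. The call was lost without control pool 3 (0.73), AQUOLIVE pool 1 (0.98) or AQUOLIVE pool 3 (0.89), with normexp (0.74) and under the replicate block.

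The bromodomain gene brd2, whose protein binds acetylated histones, had a signal of 5.80, 6.11 and 5.15 on the control diet (pools 1 to 3) and 6.45, 6.49 and 6.39 with AQUOLIVE. The diets did not overlap, and the log2 FC of 0.76 (SE 0.29) missed both parts of the methods' threshold. It passed without control pool 2 (0.93), and was 0.53 without control pool 3 and 0.38 with normexp. The heterochromatin protein genes cbx1b, cbx3 and cbx5, which bind methylated H3K9, did not pass. In cbx3 (log2 FC -0.70) AQUOLIVE pool 3 stood apart at 11.21, while the other 5 lay between 13.09 and 13.47. In cbx5 control pool 2 stood apart at 9.93, and without it the log2 FC turned from -0.18 to 0.33. The PRC1 reader cbx8b (log2 FC -0.09), phf20b (-0.29), arid3a (-0.02) and arid5b (-0.32) overlapped too, and phf13 was above background on 2 arrays and was not tested.

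The single kept DNA demethylation gene was tet1, whose enzyme oxidizes methylcytosine. Its signal was 4.60, 4.86 and 5.14 on the control diet (pools 1 to 3) and 4.08, 4.79 and 3.79 with AQUOLIVE. The groups overlapped, with a log2 FC of -0.65 (SE 0.33) from 3 arrays above background, and tet3 was above background on 1 array. The coregulator ncoa5 had a signal of 12.38, 12.07 and 12.36 on the control diet (pools 1 to 3) and 11.57, 11.75 and 11.85 with AQUOLIVE. Every AQUOLIVE pool lay below every control pool, with a log2 FC of -0.55 (SE 0.21) that was under the minimum and turned its sign in 1 of the 5 scaling and background alternatives. The nuclear receptor coactivators ncoa1 and ncoa6 were above background on 1 and 2 arrays.

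Of the 6 kept genes whose known work lies elsewhere, 0 passed. The DNA end resection gene rbbp8, which codes for CtIP, had a signal of 6.63, 6.47 and 4.88 on the control diet (pools 1 to 3) and 7.27, 7.67 and 7.80 with AQUOLIVE. Every AQUOLIVE pool was higher, but control pool 3 was 1.59 below the next control pool, and the log2 FC of 1.59 (SE 0.50) missed the methods' test. Without control pool 3 it was 1.04 and passed, as it did without control pool 1 (1.92), with quantile normalization (1.57) and in the deposited values (1.32). The gene setd6, which methylates the NF-kappaB subunit RelA in human cells, had a log2 FC of 0.68 with no overlap between the diets. Its control pool 3 was 1.08 below the next control pool, and without it the log2 FC was 0.30. The actin histidine methyltransferase setd3, the hydrolase rbbp9, the ferritin receptor ncoa4 and kat3 lay between -0.22 and 0.10, all with overlap, and ncoa7a was above background on 1 array. Without these 6 genes the counts by the methods' test were the same 7 and 1, of 60.

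The spread of the chromatin genes was larger among the control pools, as it was over all kept probes. The SD over 3 pools was larger in the control than in the AQUOLIVE group in 48 of the 66 genes (72.7%, beside 71.1% of all kept probes). The medians were 0.36 and 0.13 (kdm2ab has 2 AQUOLIVE values), beside 0.45 and 0.24 over all kept probes. Control pool 3, the dimmest array, was the lowest of the 6 pools in 24 genes and the highest in 18. The chromatin genes in it lay at a median of 0.33 from their control mean, against 0.16 and 0.23 in control pools 1 and 2 and 0.09 in each AQUOLIVE pool. Over all kept probes this median was 0.38 in control pool 3 and 0.27 in each of control pools 1 and 2. In AQUOLIVE pools 1 to 3 it was 0.18, 0.16 and 0.14. The heat map by pool shows control pool 3 with the strongest colors among the control columns.

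**Figure D3:**
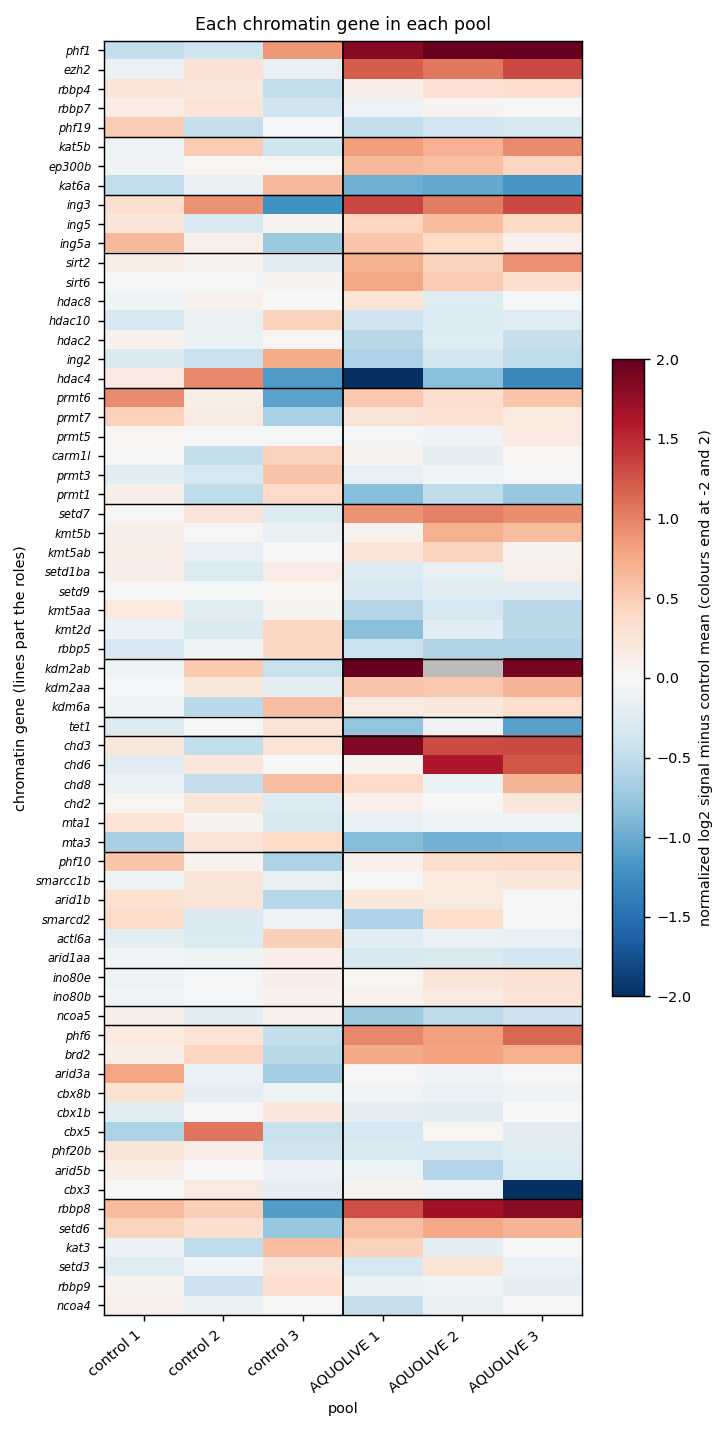
Each row is 1 of the 66 tested chromatin genes and each column a pool; the color is the normalized log2 signal minus the control mean, and grey is the value left out. The rows of ezh2, phf1, kat5b, setd7, kdm2ab, chd3 and phf6 are red in the AQUOLIVE columns and kat6a is blue, and control pool 3 departs most among the control columns.

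Chromatin genes outside the name pattern were taken from a list of 133 written from general knowledge, of which 49 were matched by symbol and 48 copies had a kept probe. In 6 of the 48 every AQUOLIVE pool lay above every control pool, and in 10 every one lay below (15.0% and 15.2% of all kept probes). Among the 66 genes 16 lay above and 8 below, with phf1 among the 16 through its filter. The difference between the lists was not tested. By the methods' test 1 was higher and 2 lower (5.22% and 3.83% of all kept probes), with a median log2 FC of 0.01. The higher gene was mllt1a, a reader of acylated histones in transcription elongation complexes, with a log2 FC of 3.32 (SE 0.64, limma adjusted p = 0.130) and 4 arrays above background. The lower genes were mllt3 (log2 FC -0.85, SE 0.21), its paralog in the same complexes, and ehmt1a (-0.96, SE 0.26), a methyltransferase of H3K9. The 8 kept subunits of the TIP60 and SAGA complexes had 0 calls and a median log2 FC of -0.02, and the 5 kept NuRD, NCoR and SIN3 subunits had a median of 0.32 and 0 calls. Other scalings were not run for these partner genes.

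Across the 66 genes, 19 turned their sign in 1 or more of the 5 alternatives that change scaling or background, 17 of them among genes whose diets overlapped and 0 among the called genes. The 8 called genes held their direction in all of their 115 alternatives, and held direction and call in 83. Much of the held direction was fixed beforehand and is no support. The diets did not overlap in these genes, so leaving out 1 array could hardly turn a sign. The replicate block gives the same log2 FC for genes with a value on every array, and phf1 had to be higher through its filter. The call was held in most alternatives by setd7 (14 of 15), chd3 (13 of 14) and ezh2 (13 of 15), and in fewest by kat5b and kat6a (7 of 15 each).

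**Figure D4:**
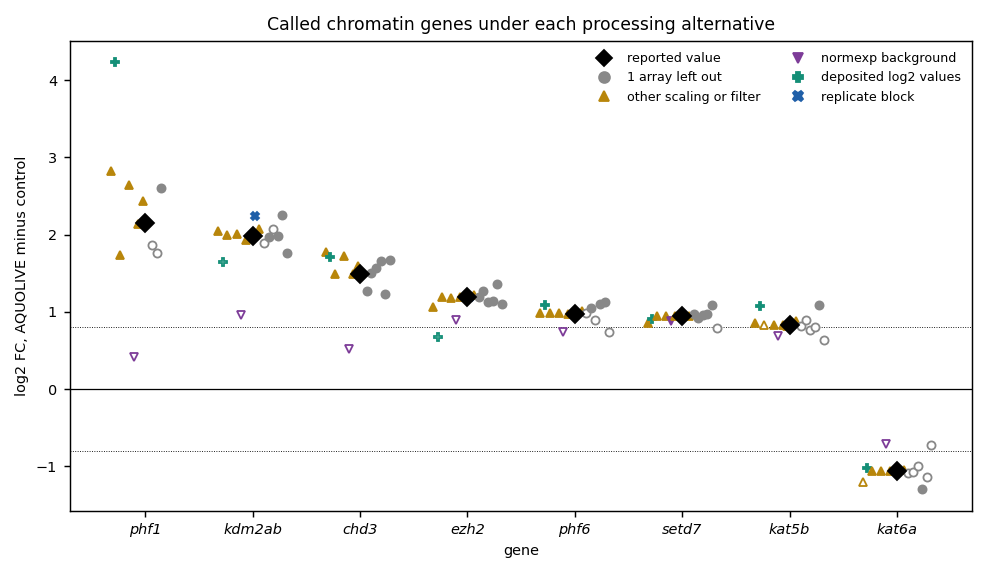
Log2 FC (vertical axis) of the 8 called chromatin genes under each processing alternative, with the reported value as a black diamond. Filled symbols passed the methods' threshold and open ones did not; no gene crosses 0, and the normexp values of phf1, kdm2ab and chd3 lie furthest below their reported values.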

How the data were processed

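Per the labels, HK RNA of 3 pools per diet was hybridized to 6 Cy3 arrays. The deposited intensity values, per spot, came from Feature Extraction 10.7.3.1 per the file headers, for which the methods name another release. The log2 values deposited beside them were identical to log2 of the signal after background subtraction (tolerance 1e-08) and had not been scaled between arrays. Control spots were dropped, outlier spots were set to missing, and the filter (well above background on 3 arrays or more) left 25826 of 42386 probes. The log2 processed signal was normalized by robust loess (span 0.3, 4 iterations) against the mean of the 3 control arrays. The methods name Lowess and an unpaired test at p under 0.05. The reference, the span and the equal variances of the t-test were chosen here. The minimum log2 FC of 0.8 was read from how the study groups its changes.

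All kept probes were fitted with limma 3.58.1 in R 4.3.3 (lmFit, eBayes, Benjamini-Hochberg, two-sided) and with the methods' t-test, which stands behind each count of genes that passed; steps were tested on simulated data. Precision is limited by how many arrays there are. An accession named 40933 probes, and the Ssal_v3.1 gene table held 25641 of them, 8155 with a symbol. The normexp alternative used median spot signals with an offset of 50, as mean signals were not used here. The members and lists were chosen with earlier results of these data known. Genes named by rule are a fixed list of enzymes, the largest called rises and falls (up to 8 each) and copies of called genes; the others were named after their values were seen. The class of kat3 was set after the symbols were read. Alternatives changed the scaling, the background correction, the filter, the outlier spots and the arrays included.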

Additional observations from a re-analysis of the deposited data

How the results depend on the processing

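Limits: 3 pools per diet cannot reach an exact permutation p under 0.1, and scan order goes with the diet. Each array had its own slide, so effects of slide and of pool cannot be told apart. Of the 66 genes, 13 were not well above background on 1 or more arrays. The count of higher genes was 7 and was 1 with normexp background correction; the count of lower genes was 1, and was 0 with 75th percentile scaling, 0 with normexp and 2 with quantile normalization. With each array left out in turn the counts were 3 (without AQUOLIVE pool 3) to 7 higher and 0 to 2 lower; 4 were higher without AQUOLIVE pool 1, 0 were lower without control pool 3 or any 1 of the AQUOLIVE pools, and 2 without control pool 1. The shares of all kept probes moved too, to 2.55% higher and 1.65% lower without AQUOLIVE pool 3, from 5.22% and 3.83%. With the pool number as a replicate block the counts were 5 and 0, beside 3.22% and 2.13% of all kept probes. The calls of phf6, kat5b and kat6a were those lost under the block. Deviations of same-numbered pools from their group means correlated at 0.21, -0.06 and 0.03, and those of differently numbered pools at -0.23 to 0.19. By the paper's design, pools of different diets shared no fish and no tank. So few pairs cannot decide whether same-numbered pools share anything else. limma called 0 genes in every one of the 15 alternatives, with 5 to 18 at an unadjusted p under 0.05.

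The median log2 FC of 0.01 was 0.0302 with 75th percentile scaling, 0.0285 in the median-centred deposited values, -0.0022 with the filter on all 6 arrays, and -0.0204 to 0.1258 with 1 array left out. Among the genes named by rule, directions that turned were carm1l (0.23 with 75th percentile scaling, 0.24 in the deposited values, 0.14 without the filter on dim probes, -0.38 to 0.19 with 1 array left out, the latter without control pool 3), ino80b (-0.17 with normexp, -0.31 in the deposited values), kdm2aa (-0.011 with normexp) and cbx5 (-0.47 to 0.33 with 1 array left out, the latter without control pool 2). The cause was not tested. Each gene has 1 probe, so averaging the probes of a symbol changes nothing. The filter on all 6 arrays left out phf1 and chd3.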
